A study of Mus musculus with 9 samples.

Results

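Tumours in which Snail was targeted were set against tumours in which Twist was targeted, so that 2 EMT factor deletions on the same tumour model were read against each other and not against an undeleted control. The 3 mice with the genotype label KPC;SnailcKO (Snail cKO) and the 3 with the label KPC;TwistcKO (Twist cKO) were chosen by that label alone, which took 6 of the 9 tumours. All 6 carried the KPC genotype, the usual name of a mouse model of ductal pancreatic cancer, and the mice formed their pancreas tumours spontaneously. The 3 KPC tumours, which had wild-type Twist and Snail, stayed outside the test and are given only as levels on the same scale. According to the series' design, Snail was not expressed in the pancreas of the first genotype and Twist was not expressed in the pancreas of the second. That text speaks of 2 mice a genotype where the labels list 3, and every labelled tumour was used. The alleles behind the abbreviation KPC, the Cre driver, the deleted exons, the strain and the age of the mice are not given in the sources used here.

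Snail, encoded by Snai1, is a zinc finger protein, and Twist, encoded by Twist1, is a basic helix-loop-helix protein. Both are switched on in the epithelial-to-mesenchymal transition (EMT), in which epithelial cells lose their junctions and keratins and take up a motile, mesenchymal state. Snail binds the E-box letters CAGGTG in promoters such as that of E-cadherin and represses them, whereas Twist binds E-boxes together with E proteins and can activate or repress its targets. In the pancreas, duct-like tumours of this kind are rich in fibroblasts, which can express Twist1 and Snai1 themselves.

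Each tumour was read on 1 Illumina array. Between 36.9% (Snail cKO 2) and 43.3% (Twist cKO 1) of the probes were above background at a detection p-value under 0.05, and 10865 genes with such a probe on at least 3 of the 6 arrays were tested. Values are log2 normalized intensities of 1 probe a gene, so a difference of 1 is a doubling of intensity, and a value of about 4.5 is background. The number of arrays limits the precision. The tumours were no more alike within a genotype than between genotypes. Across all tested genes, pairs of the same genotype correlated with a median r of 0.893 (n = 6 pairs) and pairs of different genotypes with a median r of 0.901 (n = 9 pairs), over genes that are not independent replicates. Twist cKO 2 stood apart. The keratin genes Krt18 and Krt19 were at 4.71 and 4.72 there, not above background, although the other 5 tumours lay at 10.52 or higher for both. The T cell receptor gene Cd3e was at 10.44, the B cell gene Cd22 at 9.84 and the adipocyte hormone gene Lep at 9.39 in Twist cKO 2, where none of the other 5 tumours was above 6.11 in any of these 3. Genes and list medians named below are therefore given without Twist cKO 2 too where they shrank by more than 1.5 times or turned without it. The arrays fell into 2 sets by raw median signal. Replicates 1 and 2 of both genotypes were in set 2 (115.4 to 125.4) and replicate 3 of both in set 1 (106.9 and 107.2). The Snail cKO and Twist cKO genotypes were thus balanced over the sets. The KPC arrays were all in set 1 (99.1 to 104.1), so a difference of either deletion from KPC cannot be fully told apart from array set. The slides are not named in the labels.

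The targeted genes were read first. Twist1 was at 8.65, 4.65 and 7.55 in Snail cKO tumours 1, 2 and 3, at 4.60, 4.66 and 5.23 in the Twist cKO tumours, and at 9.17, 7.45 and 7.23 in the KPC tumours. It was above background in 2 of 3 Snail cKO, 1 of 3 Twist cKO and 3 of 3 KPC tumours. Twist cKO 3, the brightest of its genotype, lay above Snail cKO 2, and the genotypes overlapped for that reason. The mean was 6.95 ± 2.07 in Snail cKO and 4.83 ± 0.35 in Twist cKO tumours (SD, n = 3 each), a difference of 2.12 (SE 0.98) or 4.35-fold. It did not pass the test. The limma p was 0.0685 before and 0.990 after Benjamini-Hochberg adjustment, and a two-sided exact permutation test gave p = 0.3, where the smallest p that 3 tumours against 3 can give is 0.1. Leaving out 1 tumour at a time gave differences of 1.27 (without Snail cKO 1) to 3.27 (without Snail cKO 2).

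Snai1 did not mark the Snail cKO tumours. It was at 7.78, 6.07 and 7.28 in Snail cKO, at 7.31, 5.64 and 7.71 in Twist cKO and at 7.89, 7.45 and 6.87 in KPC tumours, above background in all 9. Replicate 2 was the lowest of its genotype in both deletions, and the ranges overlapped almost fully. The difference between Snail cKO and Twist cKO was 0.16 (SE 0.68, exact two-sided permutation p = 0.7, n = 3 each), and it turned to -0.46 without Twist cKO 2 and to -0.43 between the 2 tumours of array set 1. A second Snai1 probe was not above background on any array. The position of these probes in the deleted genes is unknown, and a probe outside the deleted stretch checks nothing, so the level of Snai1 does not test the Snail cKO label. In bulk RNA, fewer cells of a type and less RNA per cell cannot be told apart, here and for every gene below.

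**Figure D1:**
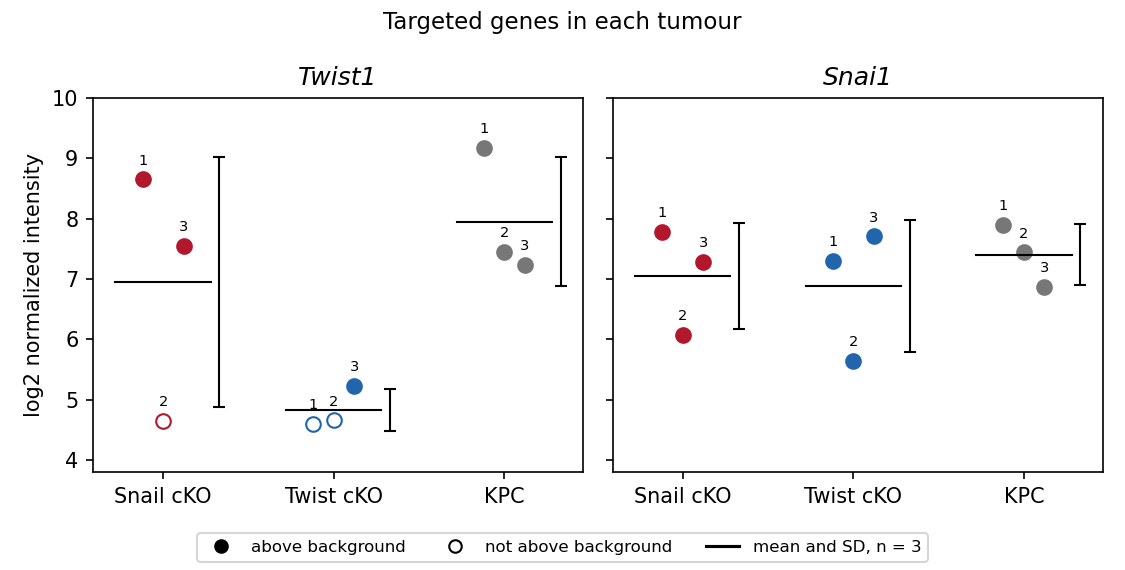
Log2 normalized intensity of Twist1 (left) and Snai1 (right) in each Snail cKO, Twist cKO and KPC tumour, with tumour numbers, filled where the probe was above background and open where it was not, and lines for the mean and SD of 3 tumours. Twist1 was low in the 3 Twist cKO tumours and in Snail cKO 2, and Snai1 covered much the same range in the 3 genotypes.

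Over all 10865 genes, 0 passed an adjusted p of 0.05 in limma (0% higher and 0% lower in Snail cKO), and the smallest adjusted p was 0.0746, for Ttc27. An unadjusted p under 0.05 was given to 362 genes (3.33%), of which 180 were higher in Snail cKO (1.66%) and 182 lower (1.68%). That is fewer than the 543 genes expected under this threshold if no gene differed. All 3 Snail cKO tumours lay above all 3 Twist cKO tumours for 457 genes (4.21%) and below them for 426 (3.92%), together 8.13% of the genes. The mean was higher in Snail cKO for 52.4% of the genes and lower for 47.6%, with a median difference of 0.03. The genes below are therefore those that ranked first and not genes shown to differ, and their values are given tumour by tumour.

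Ttc27, which encodes a protein of tetratricopeptide repeats, had the widest gap. It was at 9.20, 8.35 and 9.00 in Snail cKO and at 4.85, 4.78 and 4.83 in Twist cKO tumours, where it was not above background in any. In the KPC tumours it was at 9.63, 4.93 and 8.25. The probe was thus either bright or at background, and KPC 2 was the only tumour at background outside the Twist cKO genotype. A gene above background in no tumour of a genotype passed the filter only through all 3 tumours of the other. That contrast was therefore fixed in advance for Ttc27, and below for Defa31, Rarres1, Orm1 and Fga. Against the lowest signal that counts as detected, Ttc27 was at least 14.7-fold higher in Snail cKO (log2 difference 4.03, SE 0.32, limma adjusted p = 0.0746). It passed only when the arrays were weighted by quality, with an adjusted p of 0.0391, and its adjusted p was between 0.0391 and 0.984 over the 19 fits run, with the highest in the fit of all 9 arrays.

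Several other genes ranked highest in Snail cKO were likewise at background in 2 Twist cKO tumours and above it in the third. Igf2bp1, an RNA-binding protein of fetal tissue and tumours, was at 8.36, 6.90 and 7.19 in Snail cKO and at 4.34, 4.53 and 5.33 in Twist cKO tumours, a difference of 2.75 (SE 0.49). Its other probes gave 0.72 to 2.10. Nptx1, a secreted pentraxin best known from neurons, was at 8.06, 6.86 and 6.85 in Snail cKO and at 4.49, 4.48 and 5.36 in Twist cKO tumours (2.48, SE 0.46). For Soga3 the values were 6.61, 7.51 and 6.87 in Snail cKO and 4.55, 4.50 and 5.46 in Twist cKO tumours (2.16, SE 0.40). In the KPC tumours Soga3 was at 6.42, 8.52 and 9.96, so the Twist cKO tumours were the low ones.

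For Tfap2a, the gene of the transcription factor AP-2 alpha, the KPC tumours sided with Twist cKO. It was at 6.32, 6.60 and 6.13 in Snail cKO, at 4.42, 4.50 and 5.14 in Twist cKO and at 4.48, 4.57 and 4.46 in KPC tumours, where it was not above background in any (difference of Snail cKO from Twist cKO 1.66, SE 0.32). Sys1, a Golgi membrane protein that recruits the GTPase Arfrp1, showed the same order. It was at 8.28, 8.46 and 7.87 in Snail cKO, at 6.47, 6.37 and 6.80 in Twist cKO and at 6.55, 6.59 and 6.55 in KPC tumours (1.66, SE 0.30, or 3.15-fold). No Twist cKO or KPC tumour reached the lowest Snail cKO tumour for either gene.

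Mfsd2a, a transporter of lysophosphatidylcholine, was at 7.59, 7.95 and 8.68 in Snail cKO and at 5.81, 6.20 and 6.16 in Twist cKO tumours, 4.05-fold apart (2.02, SE 0.36). Upp1, the uridine phosphorylase that splits uridine into uracil and ribose 1-phosphate, was at 12.15, 10.97 and 10.84 in Snail cKO, at 8.99, 8.41 and 9.66 in Twist cKO and between them at 10.28, 10.67 and 9.75 in KPC tumours. The difference of Snail cKO from Twist cKO for Upp1 was 2.30 (SE 0.49), and its other probes gave 2.19 to 2.45. Cptp, a transfer protein of ceramide 1-phosphate, was at 8.45, 8.16 and 8.39 in Snail cKO and at 7.03, 6.50 and 7.09 in Twist cKO tumours (1.46, SE 0.29).

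Genes of glycogen stood on both sides. Ppp1r3b, the subunit that directs protein phosphatase 1 to glycogen and so favours its synthesis, was at 8.28, 8.18 and 7.99 in Snail cKO and at 6.07, 6.22 and 6.93 in Twist cKO tumours (1.74, SE 0.33), with KPC tumours between at 7.41, 7.30 and 7.62. Pygb, the brain form of the glycogen phosphorylase that breaks glycogen down, was at 7.17, 8.06 and 8.13 in Snail cKO and at 9.33, 9.36 and 9.43 in Twist cKO tumours (-1.59, SE 0.34), with KPC at 9.65, 9.07 and 9.90. Stbd1, which ties glycogen to membranes, was at 6.46, 6.86 and 6.70 in Snail cKO and at 8.49, 8.19 and 7.79 in Twist cKO tumours (-1.49, SE 0.30). These 3 genes were grouped after their values were seen, and limma gave each an adjusted p of 0.990.

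Of the genes ranked lowest in Snail cKO, Chmp1a, a subunit of the membrane-cutting ESCRT-III complex, was at 5.07, 5.27 and 4.99 in Snail cKO and at 8.01, 7.58 and 7.08 in Twist cKO tumours (-2.45, SE 0.33, limma adjusted p = 0.949). Sri, the calcium-binding protein sorcin, was at 9.74, 9.53 and 9.32 in Snail cKO and at 11.57, 11.27 and 11.53 in Twist cKO tumours (-1.92, SE 0.27). The KPC tumours lay with Twist cKO for Sri at 11.08, 11.40 and 10.93, and its other probes gave differences of -1.98 to -0.20. Saraf, which damps store-operated calcium entry, was at 10.70, 10.62 and 10.19 in Snail cKO and at 11.50, 12.32 and 12.08 in Twist cKO tumours (-1.46, SE 0.33), but its other probes ran from -1.19 to 1.31 and so disagreed in sign. Serinc3, a membrane protein known for restricting retroviruses, was at 9.57, 9.50 and 9.27 in Snail cKO and at 11.22, 12.48 and 10.83 in Twist cKO tumours (-2.06, SE 0.46), with KPC at 11.32, 11.13 and 10.95.

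Apoc4, an apolipoprotein, was at 4.31, 4.74 and 5.16 in Snail cKO and at 7.96, 6.33 and 7.14 in Twist cKO tumours (-2.40, SE 0.48), and it was above background in only 1 of the 3 Snail cKO tumours. Rarres1, a membrane protein induced by retinoids, was above background in no Snail cKO tumour (4.54, 4.38 and 4.52) and, as the filter then requires, in every Twist cKO tumour (6.50, 8.99 and 6.72). It was at least 5.03-fold lower in Snail cKO. Fmod, the collagen-binding proteoglycan fibromodulin, was at 5.33, 4.60 and 5.98 in Snail cKO and at 6.91, 7.01 and 7.56 in Twist cKO tumours (-1.86, SE 0.43). B3galt6, which builds the linker of proteoglycan sugar chains, was at 5.61, 5.39 and 4.79 in Snail cKO and at 6.62, 7.05 and 7.76 in Twist cKO tumours (-1.88, SE 0.40). The genotypes did not overlap for any of these 20 first-ranked genes, which is a description since their p chose them, and none of the 20 differences shrank by more than 1.5 times when any 1 tumour was left out.

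The KPC tumours give these 20 genes a side, although they were not part of the choice. Of the 10 higher genes, the KPC mean lay nearer the Snail cKO mean for 5 and nearer the Twist cKO mean for 5. For 7 of them the Snail cKO tumours, and for 5 the Twist cKO tumours, did not overlap the KPC tumours, which was so of both for 3. Of the 10 lower genes, the KPC mean lay nearer Snail cKO for 6 and nearer Twist cKO for 4, and the Snail cKO tumours were clear of the KPC tumours for 6 and the Twist cKO tumours for 2. The 20 genes were chosen for a gap between the 2 deletions, so some separation from KPC was built in. The share of all genes so separated was not computed, and the KPC arrays were all in array set 1, so these counts are only a description.

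**Figure D2:**
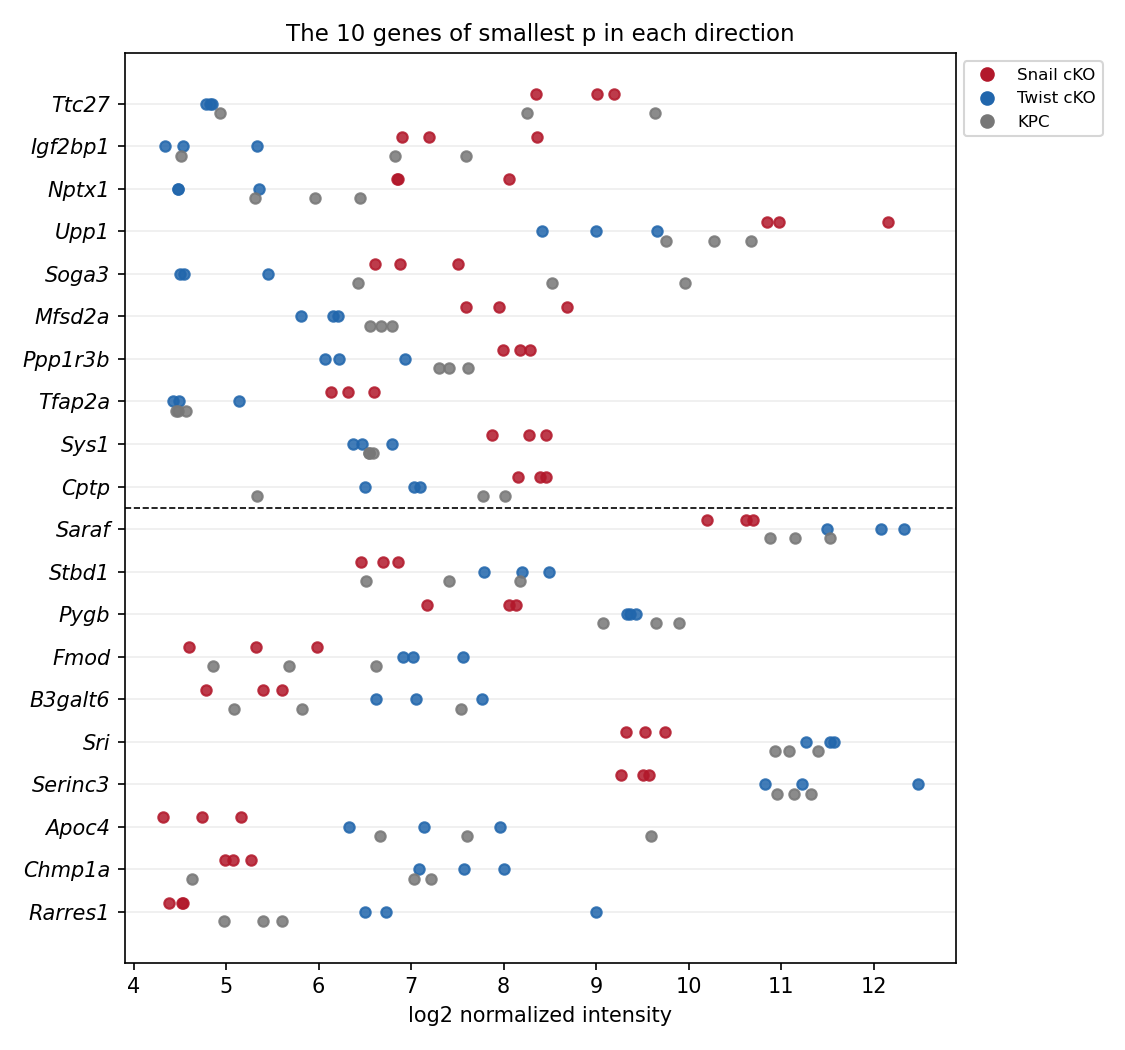
Log2 normalized intensity of the 10 first-ranked genes by p in each direction, higher in Snail cKO above the dashed line and lower below it, with 1 dot a tumour for Snail cKO, Twist cKO and, offset downward, KPC. Red and blue dots did not overlap for any of the 20 genes, and the grey KPC dots fell on either side.

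The E-box letters were looked up in the promoters of these genes because both deleted factors bind such boxes. RefSeq promoter windows (build GRCm38.p6, 250 bases before to 50 after the start) were found for 16 of the 20 genes. The letters CAGGTG, on either strand, were in a window of 1 of 7 genes of the higher group (Mfsd2a) and of 2 of 9 of the lower group (Sri and Stbd1), against 22.6% of the 27025 genes with a window. The looser CANNTG, which includes CAGGTG, was in a window of 5 of 7 and 3 of 9, against 75.0% of genes. A match is a description of these letters and says nothing of binding. The stretches around CAGGTG follow, with the one in the Snai1 promoter itself, 5′ to 3′ along the gene, with the box in capitals (CACCTG is the same box read from the other strand).
Snai1, chr2:167538039-167538104, plus strand, box 126 bases before the start: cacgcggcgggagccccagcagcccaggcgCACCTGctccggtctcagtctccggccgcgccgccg
Mfsd2a, chr4:122961325-122961390, minus strand, box 172 bases before the start: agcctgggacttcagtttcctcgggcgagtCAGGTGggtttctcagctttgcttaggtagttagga
Sri, chr5:8045897-8045962, plus strand, box 151 bases before the start: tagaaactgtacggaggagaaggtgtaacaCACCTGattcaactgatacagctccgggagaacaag
Stbd1, chr5:92602855-92602920, plus strand, box 166 bases before the start: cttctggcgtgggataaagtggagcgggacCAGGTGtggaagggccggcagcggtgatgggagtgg

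Genes were also ranked by the size of the difference among those whose genotypes did not overlap, and for 3 of the higher genes named by that rank the difference shrank by more than 1.5 times without Twist cKO 2. Aqp5, a water channel of duct and gland cells, was at 10.02, 10.61 and 11.61 in Snail cKO and at 9.16, 4.67 and 8.23 in Twist cKO tumours (3.40, and 2.05 without Twist cKO 2). Gcnt3, which branches mucin sugar chains, was at 10.40, 12.37 and 11.95 in Snail cKO and at 10.10, 4.55 and 10.32 in Twist cKO tumours (3.25, and 1.36 without Twist cKO 2). Twist cKO 2 was at background for both, and Twist cKO 1 and 3 lay just below the lowest Snail cKO tumour for Gcnt3 and farther below it for Aqp5. The elastase gene Cela1 (2.79) was at 1.80 without Twist cKO 2, whereas the dermokine gene Dmkn (3.06) and Pbp2 (2.89), of the phosphatidylethanolamine-binding family, were at 2.12 and 2.03.

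A single Snail cKO tumour stood far above the rest for Spink4 and for Slc5a5. Spink4, a protease inhibitor of goblet cells, was at 7.22, 7.40 and 12.49 in Snail cKO and at 7.11, 4.38 and 6.19 in Twist cKO tumours (3.14, and 1.42 without Snail cKO 3). Plau, the urokinase that activates plasminogen at the cell surface, was at 12.57, 8.69 and 11.51 in Snail cKO, at 8.53, 7.61 and 7.33 in Twist cKO and at 7.73, 10.04 and 8.12 in KPC tumours (3.10, SE 0.98, and 2.28 to 4.22 whichever tumour was left out). Slc5a5, the sodium-iodide symporter, was at 6.76, 9.85 and 6.93 in Snail cKO and at 5.11, 4.81 and 4.58 in Twist cKO tumours (3.01, SE 0.83, and 2.01 without Snail cKO 2). Defa31, a defensin gene with near-identical copies that the probe may not separate, was above background in no Twist cKO tumour and was at least 6.61-fold higher in Snail cKO.

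On the lower side, Smoc1, a secreted calcium-binding protein of the SPARC family, was at 7.02, 7.06 and 8.82 in Snail cKO, at 10.14, 9.29 and 9.74 in Twist cKO and at 5.46, 7.10 and 6.40 in KPC tumours (-2.09, SE 0.56). The Twist cKO tumours were the bright ones for Smoc1, and the KPC tumours lay with or below Snail cKO. Stx11, a syntaxin of immune cell secretion, was at 8.29, 7.57 and 6.28 in Snail cKO and at 9.48, 9.79 and 9.40 in Twist cKO tumours (-2.18, SE 0.53). Srgap3 was at 6.90, 5.60 and 7.33 in Snail cKO and at 8.65, 8.11 and 9.50 in Twist cKO tumours (-2.14, SE 0.57), and another probe gave -0.56. The secreted proteins Olfml1 and Ccdc3 differed by -2.34 (SE 0.58) and -2.13 (SE 0.60), but by -0.54 and -0.34 between the tumours of array set 1.

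Twist cKO 2 was the brightest tumour for a further pair. H2-T10, a class I-like gene with close copies, was at 5.17, 5.62 and 4.89 in Snail cKO and at 7.58, 11.08 and 6.85 in Twist cKO tumours (-3.28, and -1.99 without Twist cKO 2), and its other probes ran from -0.74 to 1.69. Orm1, an acute-phase plasma protein, was above background in no Snail cKO tumour and, as the filter then requires, in all Twist cKO tumours. It was at least 4.08-fold lower in Snail cKO (-2.21, and -1.13 without Twist cKO 2).

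The EMT transcription factors did not separate the genotypes. Of 15 listed, 12 were tested, 8 with a higher and 4 with a lower mean in Snail cKO (median difference 0.11, against 0.03 over all genes, and -0.08 without Snail cKO 1). An unadjusted limma p under 0.05 was given to 0 of the 12, against 3.33% of all genes. Groups that did not overlap were found for 0, against 8.13%. With shares that low over all genes, counts of 0 among 12 say little about these factors. Zeb1, a repressor of E-cadherin, was at 9.64, 8.91 and 9.09 in Snail cKO and at 8.04, 9.92 and 9.50 in Twist cKO tumours (0.06, SE 0.54), and Zeb2 differed by -0.27 (SE 0.59, and -0.15 without Twist cKO 2). Snai2, the gene of Slug, was at 7.86, 5.97 and 7.73 in Snail cKO and at 5.67, 7.03 and 7.36 in Twist cKO tumours (0.50, SE 0.67). Twist2, the paralogue of Twist1, was at 5.78, 4.86 and 4.49 in Snail cKO and at 4.93, 6.19 and 6.35 in Twist cKO tumours (-0.77, SE 0.52), above background in 1 and 2 of them. The mesenchymal homeobox gene Prrx1 was at 8.46, 5.25 and 7.43 in Snail cKO and at 6.46, 5.72 and 6.86 in Twist cKO tumours (0.70, SE 0.82, and 0.39 without Twist cKO 2). Snai3 (-0.23, and 0.11 without Twist cKO 2), Foxc1 (-0.06), the E protein genes Tcf3 (0.01) and Tcf4 (0.26) and the progenitor factor Sox4 (0.89, and -0.33 without Twist cKO 2) completed the list, and only Tcf4, Twist2 and Twist1 kept their sign whichever tumour was left out. The other probe of Sox4 gave -0.20 and that of Zeb1 -0.53.

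Genes that Snail is reported to repress were not uniformly higher in Snail cKO. Of 9 tested of 10 listed, 6 had a higher mean (median 0.61), but without Twist cKO 2 only 2 did (median -0.32). Cdh1, the gene of E-cadherin, was at 9.57, 11.11 and 10.58 in Snail cKO, at 11.07, 5.91 and 10.41 in Twist cKO and at 6.90, 10.51 and 10.71 in KPC tumours. Its difference was 1.29 (SE 1.34) and -0.32 without Twist cKO 2. Krt18 went the same way (2.70 and -0.04 without that tumour), as did the mucin gene Muc1 (1.69 and -0.50), while the tight junction gene Ocln kept its sign (1.13 and 0.46). Of the genes reported to be activated by Twist1, 3 of 7 listed were tested, with the growth factor receptor gene Pdgfra at -0.20 (SE 0.88), the Polycomb gene Bmi1 at -0.48 (SE 0.50) and Snai2 as above (median -0.20, and 0.81 without Snail cKO 2).

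Epithelial and mesenchymal genes at large also depended on Twist cKO 2. Of 22 epithelial junction and keratin genes tested, 15 had a higher mean in Snail cKO (median 0.56), and 6 without Twist cKO 2 (median -0.20). Tjp3, of the tight junction, was at 6.44, 8.83 and 7.69 in Snail cKO and at 7.57, 5.04 and 5.74 in Twist cKO tumours (1.54, SE 0.83, and 0.99 without Twist cKO 2), and Jup, the plakoglobin of desmosomes, was near background in both (-0.58, SE 0.34). Of 15 mesenchymal state genes, 12 were higher (median 0.55), and 7 without Twist cKO 2 (median -0.09). The gelatinase gene Mmp9 was at 12.17, 7.28 and 9.34 in Snail cKO and at 8.73, 7.47 and 7.86 in Twist cKO tumours (1.57, SE 1.17, and 0.29 without Snail cKO 1). The urokinase receptor gene Plaur, whose ligand is Plau, was at 10.11, 10.09 and 9.84 in Snail cKO and at 9.42, 6.92 and 10.54 in Twist cKO tumours (1.06, and 0.04 without Twist cKO 2), and S100a4 differed by 1.11 (SE 0.76, and 0.50 without Twist cKO 1). In these 2 lists 0 genes had an unadjusted p under 0.05, against 3.33% of all genes, a share so low that this count says little.

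The side on which fibroblast and matrix genes lay depended on single tumours. Over all 6 tumours 9 of 19 were higher in Snail cKO (median -0.04), but 3 were without Twist cKO 2 (median -0.66) and 15 without Snail cKO 2 (median 0.73). Fap, the protease of activated fibroblasts, was at 6.29, 5.10 and 5.28 in Snail cKO, at 6.89, 7.39 and 6.75 in Twist cKO and at 6.91, 7.74 and 7.46 in KPC tumours (-1.45, SE 0.41). It was the only one of the 19 members whose genotypes did not overlap, against 8.13% of all genes, and every Snail cKO tumour was below every KPC tumour as well. The matrix proteoglycan gene Lum was also lower in the mean (-1.04, SE 0.59, and -0.40 without Snail cKO 2) and the fibulin gene Fbln1 higher (1.18, SE 0.54). By tumour, the list median relative to the mean of the 6 was 0.47, -1.25 and 0.79 in Snail cKO and 0.54, -1.32 and 0.93 in Twist cKO tumours, so each genotype had 1 tumour with a low list median. The members did not move together. Twist cKO 2 was the highest of the 6 tumours for Fap (7.39) and Dcn (13.35) but the lowest of its genotype for Lum (10.68). Twist1 was not above background in Snail cKO 2 and Twist cKO 2, where the list median was low, nor in Twist cKO 1, where it was high. Integrins and laminins were higher for 15 of 18 (median 0.40, and -0.33 without Twist cKO 2), led by Itga6 of the epithelial hemidesmosome, at 9.69, 8.50 and 8.91 in Snail cKO and at 7.55, 5.95 and 8.13 in Twist cKO tumours (1.83, SE 0.63, and 1.2 without Twist cKO 2). The other probe of Itga6 gave 0.82.

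Proliferation genes had a higher mean in Snail cKO by small amounts. All 17 tested of 22 listed had a higher mean in Snail cKO, by 0.03 to 1.23 (median 0.53), where 52.4% of all genes did, and with 1 tumour left out between 12 (without Twist cKO 1) and 16 (without Twist cKO 2) did (medians 0.43 to 0.62). Of the 17, 2 had an unadjusted p under 0.05, against 3.33% of all genes, and 4 had genotypes that did not overlap, against 8.13%. Cdc20, the activator of the anaphase-promoting complex, was at 10.29, 10.80 and 10.11 in Snail cKO and at 8.94, 8.73 and 9.85 in Twist cKO tumours (1.23, SE 0.40). Its other probes gave 0.64 to 0.94. The mitotic kinase gene Aurkb was at 8.46, 8.21 and 7.33 in Snail cKO and at 6.82, 7.10 and 7.07 in Twist cKO tumours (1.00, SE 0.37), with Aurka at 1.12 (SE 0.47) and the survivin gene Birc5 at 0.62 (SE 0.30). Other probes of Birc5 gave 0.21 to 0.40. Twist cKO 3 was the highest of its genotype for Cdc20 and Aurka, and between it and Snail cKO 3, the array set 1 pair, the list median was 0.03.

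Replication-dependent histone genes, which dividing cells use in S phase, lay on the other side. Of 12 tested of 18 listed, 11 had a lower mean in Snail cKO (median -0.70), where 47.6% of all genes did. In 4 the genotypes did not overlap, with Snail cKO below, as in 3.92% of all genes. The median was -0.99 without Twist cKO 2 and between -0.44 and -0.99 whichever tumour was left out. H1f2, a linker histone, was at 11.56, 10.95 and 11.93 in Snail cKO, at 13.56, 12.19 and 13.02 in Twist cKO and at 11.14, 10.76 and 10.44 in KPC tumours (-1.45, SE 0.45). H4c9 (-1.23, SE 0.42) and H2ac19 (-1.03, SE 0.38) were likewise among these 4, and H4c8 was at -1.31 (SE 0.56). For H4c8 all 3 KPC tumours were below the Snail cKO tumours, and for H1f2 and H2ac19 KPC 2 and KPC 3 were, with KPC 1 inside the Snail cKO range. For H4c9 KPC 2 and KPC 3 were below the Snail cKO tumours too (6.50 and 6.83). KPC 1, at 8.32, was above every Snail cKO tumour for H4c9 and inside the Twist cKO range. Probes of histone genes can read close copies, so the individual members are uncertain.

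Hypoxia and glycolysis genes had a higher mean in Snail cKO for all 16 tested of 19 listed (median 0.57), and for 14 (without Snail cKO 1) to 16 whichever tumour was left out (medians 0.41 to 0.87, and 0.42 without Twist cKO 2). Pfkl, the liver form of phosphofructokinase, was at 11.01, 11.03 and 11.08 in Snail cKO and at 10.66, 9.99 and 10.37 in Twist cKO tumours (0.70, SE 0.29), although its other probe gave -0.31. The pyruvate kinase gene Pkm was at 13.15, 13.01 and 13.09 in Snail cKO and at 12.56, 11.13 and 12.55 in Twist cKO tumours (1.00, and 0.53 without Twist cKO 2). Tpi1, the triose phosphate isomerase gene, differed by 0.84 (0.44 without that tumour) and the hypoxia marker Car9, a carbonic anhydrase, by 2.15 (1.06 without it). Other probes gave -0.0089 to 0.79 for Tpi1, 1.22 to 1.81 for Car9 and 0.38 for Pkm. The Snail cKO tumours lay close together for Pfkl and Pkm, and Twist cKO 2 was the lowest of the 6 for both.

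Genes of nucleoside transport and of the metabolism of gemcitabine, a nucleoside drug, showed mostly small differences, from -0.72 to 1.70. The list mixes genes of the drug's entry, activation and inactivation, so its counts give no direction for activation of the drug. Of 20 genes tested of 23 listed, 15 had a higher mean in Snail cKO, where 52.4% of all genes did, and 12 to 15 whichever tumour was left out (median 0.26, and 0.20 to 0.37). In 4 of the 20, all Snail cKO tumours lay above all Twist cKO tumours, as in 4.21% of all genes. Nme1, a nucleoside diphosphate kinase, was at 13.19, 13.19 and 13.06 in Snail cKO, at 12.69, 12.64 and 12.53 in Twist cKO and at 13.18, 13.14 and 13.08 in KPC tumours, so the Twist cKO tumours were below both other genotypes by about the same amount (0.52, SE 0.25). The deaminase gene Dctd was at 9.26, 10.18 and 8.61 in Snail cKO and at 8.61, 7.29 and 8.27 in Twist cKO tumours (1.29, SE 0.53), and its highest Twist cKO value lay just under its lowest Snail cKO value. The thymidine kinase gene Tk1 (0.58, SE 0.28) and the ribonucleotide reductase gene Rrm2 (0.66, SE 0.34, and 0.43 without Twist cKO 1) were higher in the mean as well. Their other probes gave 0.29 and 0.63. The equilibrative transporter genes, named after their values were seen, did not differ beyond their spread. Slc29a1 was at 9.13, 9.89 and 9.02 in Snail cKO and at 8.47, 9.16 and 10.10 in Twist cKO tumours (0.10, SE 0.49, and 0.06 without Twist cKO 2), and Slc29a2 was at 0.46 (SE 0.33). The other probe of Slc29a1 gave -0.41.

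The widest list differences were those of duct and mucinous cells, and they followed Twist cKO 2. All 8 duct cell markers tested had a higher mean in Snail cKO (median 2.03), and 5 of 8 without Twist cKO 2 (median 0.29). Sox9, a duct and progenitor factor, was at 11.45, 11.74 and 12.97 in Snail cKO and at 10.37, 5.80 and 12.72 in Twist cKO tumours (2.43, and 0.51 without Twist cKO 2), and Krt19 likewise (2.36 and 0.15). The chloride channel gene Cftr kept more of its difference (2.68 and 1.48), at 8.80, 9.68 and 11.41 in Snail cKO and at 7.73, 4.89 and 9.24 in Twist cKO tumours. All 15 mucinous and gastric markers had a higher mean (median 1.81), and 9 did without Twist cKO 2 (median 0.64) and 13 without Snail cKO 3 (median 1.19).

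Among the mucinous genes, Gkn1, of gastric surface cells, was at 11.84, 12.06 and 12.95 in Snail cKO and at 10.38, 4.87 and 12.03 in Twist cKO tumours (3.19, and 1.08 without Twist cKO 2). The trefoil gene Tff3 was at 4.97, 7.82 and 12.05 in Snail cKO and at 5.49, 4.40 and 5.70 in Twist cKO tumours, and the gland mucin gene Muc6 at 6.84, 5.12 and 10.30 in Snail cKO and at 4.38, 4.32 and 5.68 in Twist cKO tumours. Both were highest in Snail cKO 3, and their differences of 3.08 and 2.62 were 1.19 and 1.18 without it. Agr2, a disulfide isomerase of secretory cells, was near background in most tumours (0.92, SE 0.42, and 0.57 without Snail cKO 3). It was the only mucinous member whose genotypes did not overlap, against 8.13% of all genes. Of the pancreas lineage factors, 8 of 11 had a higher mean (median 0.52), but 5 did without Snail cKO 2 (median -0.03) and 6 without Twist cKO 2 (median 0.15). Among them were Pdx1, the master regulator of pancreas identity, at 7.29, 8.31 and 8.24 in Snail cKO and at 7.40, 4.59 and 7.85 in Twist cKO tumours (1.34, and 0.32 without Twist cKO 2), and Foxa3 (2.08, and 0.70 without Twist cKO 2). EGF family ligands and receptors were higher for 5 of 6 (median 1.07, and 0.13 without Twist cKO 2), with the neuregulin gene Nrg1 at 1.07 (SE 0.54, and 0.65 without Twist cKO 2).

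**Figure D3:**
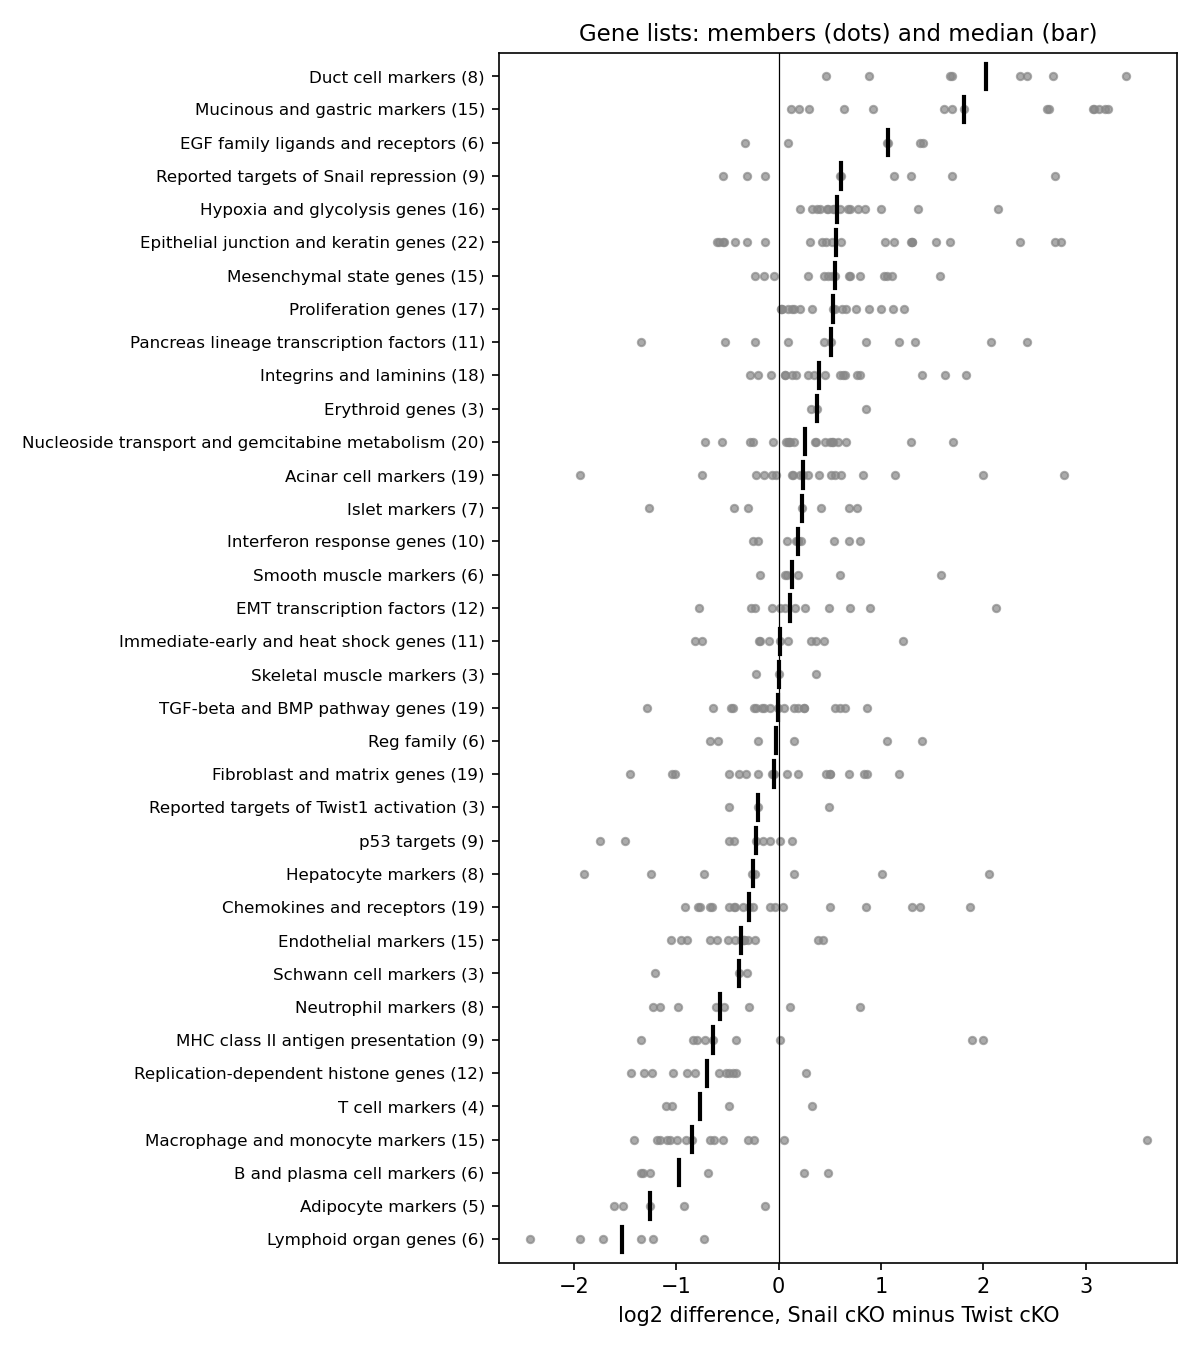
Difference of Snail cKO minus Twist cKO on the log2 scale for every tested member (grey dots) of each gene list, with the list median as a bar and the number of members in brackets, in order of the median. Duct and mucinous markers lay farthest to the right (medians 2.03 and 1.81) and lymphoid organ genes farthest to the left (-1.53), and only a few lists had every member on one side.

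**Figure D4:**
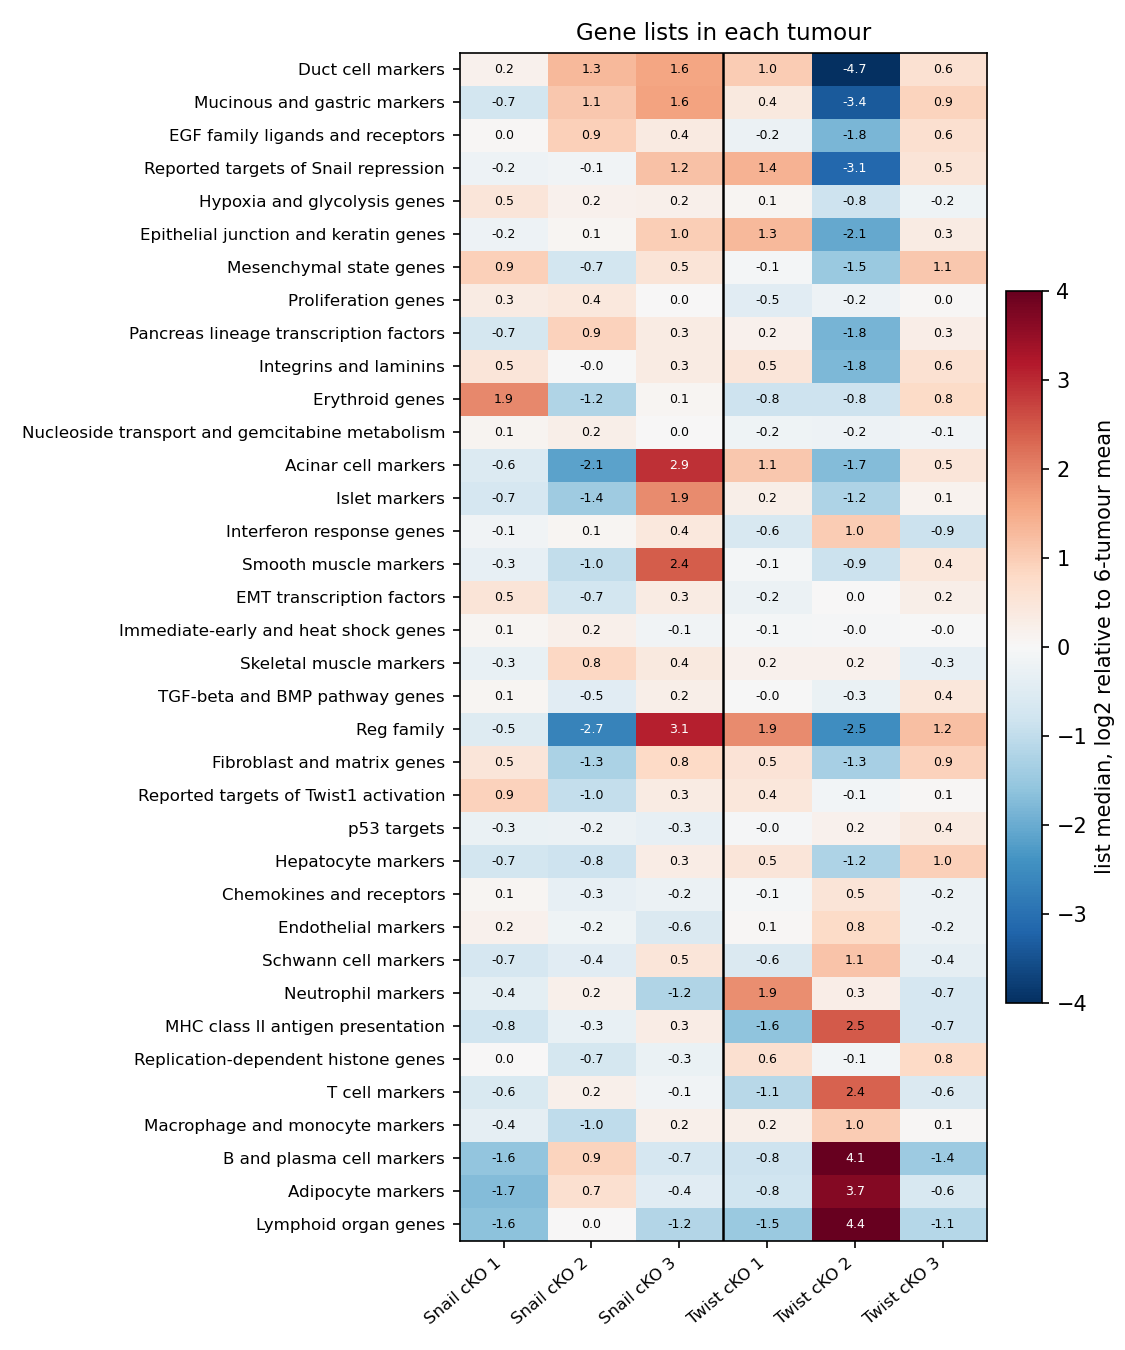
Median of each gene list in the 3 Snail cKO and 3 Twist cKO tumours, on the log2 scale relative to the mean of the 6 tumours, with the value printed in each cell and the colour capped at -4 and 4. Twist cKO 2 held the lowest duct median (-4.7) and the highest B and plasma cell (4.1), adipocyte (3.7) and lymphoid organ (4.4) medians.

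Acinar genes, which encode digestive enzymes, varied more between single tumours than between genotypes. Of 19 tested, 13 were higher in Snail cKO (median 0.24), but 5 without Twist cKO 2 (median -0.50) and 3 without Snail cKO 3 (median -1.23), and the list medians by tumour were -0.55, -2.13 and 2.92 in Snail cKO and 1.07, -1.74 and 0.47 in Twist cKO tumours. The amylase gene Amy2a5 was at 8.60, 7.15 and 13.50 in Snail cKO and at 12.48, 11.11 and 11.48 in Twist cKO tumours (-1.94, with -3.82 without Snail cKO 3 and -0.64 without Snail cKO 2), and the trypsinogen gene Prss3 was at 2.00 (0.64 without Snail cKO 3). These are families of near-identical genes whose probes can read each other. The Reg family, secreted by acinar cells in injury, followed the same tumours (median -0.03 over 6 genes, and -1.72 without Twist cKO 2 to 1.61 without Snail cKO 2). Islet markers had a median of 0.22 over 7 genes, which was -0.08 without Twist cKO 2 and -0.68, with 0 of 7 higher, without Snail cKO 3. Smooth muscle markers, highest in Snail cKO 3 like the acinar genes, had a median of 0.14 over 6 genes, 5 of them higher, and of -0.71, with 1 higher, without Snail cKO 3. Without Twist cKO 2 that median was 0.04.

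Macrophage and monocyte markers were lower in Snail cKO for 13 of 15 tested (median -0.85, and -0.55 without Twist cKO 2). C1qc, a chain of complement C1q made by tissue macrophages, was at 10.58, 9.90 and 10.77 in Snail cKO and at 11.30, 12.14 and 11.01 in Twist cKO tumours (-1.07, SE 0.41), and C1qb was at -0.85 (SE 0.38, and -0.55 without Twist cKO 2). These were the 2 of 15 members whose genotypes did not overlap, against 8.13% of all genes. Mpeg1, the perforin-like protein of macrophages, was at -1.41 (SE 0.67), and at 0.45 between the 2 tumours of array set 1, where the list median was -0.01. Fcer1g, the signalling chain of Fc receptors, ran against the list. It was at 10.10, 9.81 and 10.28 in Snail cKO, at 10.42, 4.46 and 4.52 in Twist cKO and at 12.19, 11.15 and 9.67 in KPC tumours, at background in Twist cKO 2 and 3 only (3.60, SE 1.57), although C1qb and C1qc were bright in both.

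Genes of MHC class II, which present antigen to helper T cells, split in 2. H2-Eb1 was at 9.92, 10.12 and 10.92 in Snail cKO and at 7.64, 8.82 and 8.51 in Twist cKO tumours (1.99, SE 0.44), and H2-Aa was at 8.53, 8.53 and 9.94 in Snail cKO, at 6.73, 6.95 and 7.66 in Twist cKO and at 5.54, 5.11 and 7.22 in KPC tumours (1.89, SE 0.49). In these 2 of the 9 genes tested, all Snail cKO tumours lay above all Twist cKO tumours, as in 4.21% of all genes. Twist cKO 2 was thus below every Snail cKO tumour for both. The partner chain H2-Ab1 and the invariant chain gene Cd74, named after their values were seen, ran differently. H2-Ab1 averaged 11.12 ± 0.85 in Snail cKO and 11.11 ± 2.09 in Twist cKO tumours (SD, n = 3 each), with 9.51, 13.48 and 10.33 in the Twist cKO tumours (0.01, SE 1.05), and Cd74 was at -0.42 (SE 1.03). Twist cKO 2 was the brightest of the 6 tumours for both, and without it they were at 1.2 and 0.72. The peptide-loading gene H2-DMb1 was at -0.84 (0.18 without Twist cKO 2) and the protease gene Ctss at -0.72 (SE 0.27). The genotypes did not overlap for Ctss either, with Snail cKO below, as in 3.92% of all genes. Over the 9 genes tested, 3 were higher in Snail cKO (median -0.64), and 8 were higher without Twist cKO 2 (median 0.87).

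Most lymphocyte, lymphoid organ and adipocyte genes had lower means in Snail cKO, and their list medians shrank or turned without Twist cKO 2. All 6 lymphoid organ genes were lower (median -1.53), and 4 of the 6 were higher without Twist cKO 2 (median 0.57). The lymphotoxin gene Ltb was at 4.46, 6.72 and 5.48 in Snail cKO and at 7.65, 11.07 and 5.23 in Twist cKO tumours (-2.43), and the follicle chemokine gene Cxcl13 at 5.43, 7.99 and 5.23 in Snail cKO and at 6.81, 11.31 and 6.36 in Twist cKO tumours (-1.94). Without Twist cKO 2 they were at -0.88 and -0.37. B and plasma cell markers had a median of -0.97 over 6 genes (0.57 without Twist cKO 2), with Cd22 at -1.35 and 0.29. Of these 6, 2 were higher in Snail cKO, among them Xbp1 (0.48, SE 0.33). T cell markers had a median of -0.76 over 4 genes (0.55 without Twist cKO 2), with Cd3e at -1.04 and 0.92. Of these 4, 1 was higher, Cd8b1 (0.33, SE 0.47, and 0.17 without Twist cKO 2), although its other probe gave -0.98. All 5 adipocyte markers were lower (median -1.25, and -0.05 without Twist cKO 2), with the lipase gene Lpl at -1.60 and -0.66 and Lep at -1.52 and -0.06.

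**Figure D5:**
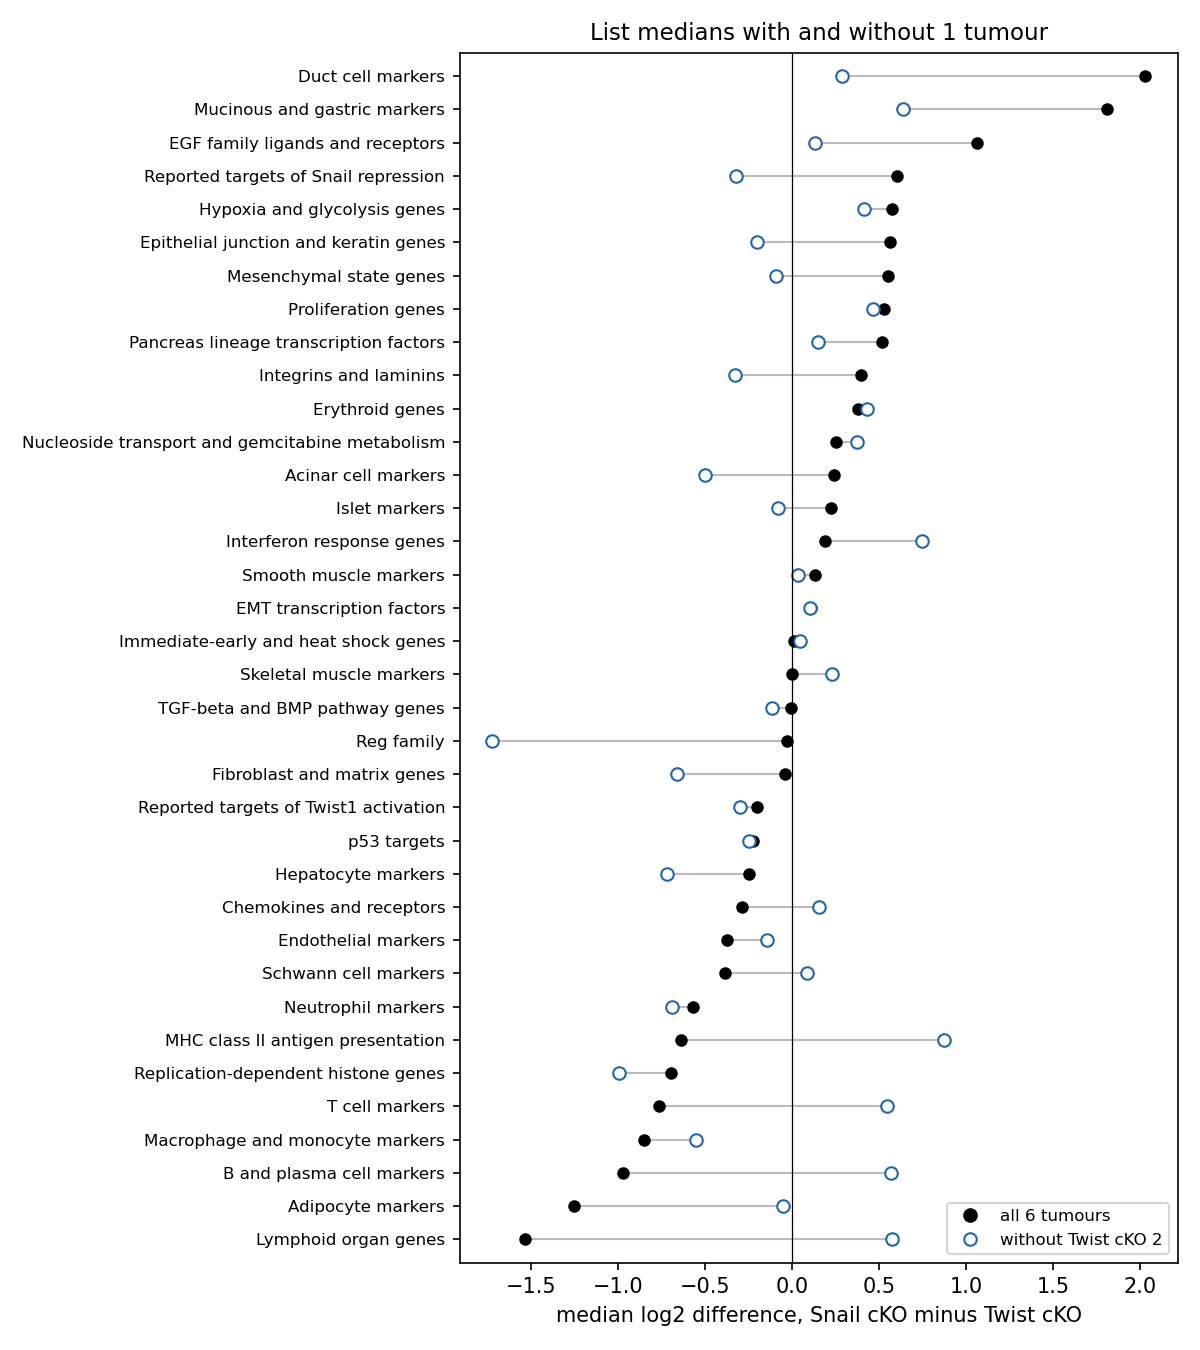
Median difference of each gene list, Snail cKO minus Twist cKO on the log2 scale, over all 6 tumours (filled) and without Twist cKO 2 (open). The proliferation, histone and hypoxia medians moved little, whereas the duct, lymphoid organ, B cell and MHC class II medians moved by more than 1 unit.

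Endothelial markers had lower means in Snail cKO for 13 of 15 members (median -0.37, and -0.14 without Twist cKO 2), with Pecam1 at -1.05 and -0.38 without that tumour, Plvap of fenestrated vessels at -0.89 and -0.34, and the TGF-beta co-receptor gene Eng at -0.60 and -0.40. Of the chemokines and their receptors, 13 of 19 were lower (median -0.29, and 0.15 without Twist cKO 2). The monocyte-attracting chemokine gene Ccl8 was nevertheless at 8.71, 7.38 and 7.87 in Snail cKO and at 6.13, 6.80 and 5.42 in Twist cKO tumours (1.87, SE 0.50), with Ccl7 at 1.38 (SE 0.63). Cxcl16 was at 10.06, 10.21 and 10.57 in Snail cKO and at 11.54, 11.25 and 10.78 in Twist cKO tumours (-0.91, SE 0.32). Of the 19, only Ccl8 and Cxcl16 had genotypes that did not overlap, against 8.13% of all genes. Of 8 neutrophil markers, 6 were lower in the mean (median -0.57, and -0.35 without Twist cKO 1), and their granule gene Ngp was near background in most tumours (-0.98, SE 0.57, and -0.52 without Twist cKO 1). Interferon response genes had a higher mean for 8 of 10 (median 0.19), and for 10 without Twist cKO 2 (median 0.75), but for 4 without Twist cKO 1 (median -0.02) and for 4 without Twist cKO 3 (median -0.27).

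In the TGF-beta and BMP pathway, 9 of 19 genes were higher (median 0.00, and -0.29 to 0.18 whichever tumour was left out). Id2, an inhibitor of basic helix-loop-helix factors that lacks a DNA-binding region, was at 7.54, 7.94 and 7.41 in Snail cKO, at 9.06, 9.12 and 8.55 in Twist cKO and at 7.55, 8.40 and 8.08 in KPC tumours (-1.28, SE 0.31). Every Twist cKO tumour was above every tumour of the other genotypes for Id2, and its other probe gave -0.69. Of 9 p53 targets, 7 were lower in the mean (median -0.22, and -0.47 to -0.23 whichever tumour was left out), with Trp53inp1 at 9.26, 8.70 and 8.72 in Snail cKO and at 10.97, 10.98 and 9.23 in Twist cKO tumours (-1.50, SE 0.53) and the cell death gene Pmaip1 at -1.75 (SE 0.82, and -1.06 without Twist cKO 1). Immediate-early and heat shock genes, which move with the handling of tissue, had a median of 0.01 over 11 genes, 6 of them higher (-0.08 to 0.12 whichever tumour was left out), with Fos at 9.88, 10.73 and 10.57 in Snail cKO and at 9.44, 8.36 and 9.74 in Twist cKO tumours (1.22, SE 0.46, and 0.81 without Twist cKO 2). Of other cell types, hepatocyte markers had a median of -0.25 over 8 genes (-0.71 without Twist cKO 2 to 0.18 without Twist cKO 3), 3 of them higher in Snail cKO. Among these 3 was Ttr (2.06, and 0.48 without Twist cKO 2). The fibrinogen gene Fga was above background in no Snail cKO and, as the filter then requires, in every Twist cKO tumour. It was at least 2.87-fold lower in Snail cKO. Erythroid, skeletal muscle and Schwann cell markers, of 3 genes each, had medians of 0.38, 0.00 and -0.39, which were 0.43, 0.23 and 0.08 without Twist cKO 2, and the erythroid median was -0.49 without Snail cKO 1.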

How the data were processed

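The authors deposited, per the file headers, a mean bead intensity with its detection p-value for 45281 probes. That intensity was linear, with no background subtracted and no normalization, judging from the values. The submitters' processing notes name GenomeStudio 5.0 without a role. A second deposited intensity table was a straight line of the first on each array (slopes 0.795 to 1.16, intercepts -101 to -68.3). It was linear, not centred by gene and ran the same way, and the method of its scaling is unknown. Its medians were 21.7, 23.3 and 9.3 in Snail cKO, 21.7, 22.4 and 11.2 in Twist cKO and 14.6, 13.7 and 17.3 in KPC tumours.

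All 9 arrays were corrected for background through the detection p-values, quantile-normalized and logged (log2) with neqc (offset 16; limma 3.58.1, R 4.3.3, version 1.17.8 of data.table). Of the probes, 34885 had 1 gene symbol in the platform annotation (34807 of them in RefSeq), 18 had several and 10378 none. With 1 symbol and a detection p-value under 0.05 on 3 or more of the 6 arrays, 16503 were kept, and the brightest stood for its gene (3955 genes had more than 1). Replicate numbers follow the order of the labels and pair nothing. The 6 arrays entered lmFit and eBayes (4 residual and 2.57 prior degrees of freedom, prior SD 0.476), with two-sided p-values adjusted over all genes by Benjamini and Hochberg. SEs come from this fit, and p-values measure the spread between separate mice. A bound sets the brighter mean against the higher of the dim probe's own signal and the lowest signal detected on each array. The steps were tested on simulated data.

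Genes named were Twist1, Snai1, the 10 of smallest p and the 10 of largest difference without overlap in each direction, the EMT factors tested and up to 4 members of each list by p. Predicted and clone names were not named. Members, lists and rules were chosen with earlier results of these data known, so no list was tested as a whole. Alternatives were no background correction, an offset of 50, cyclic loess, the 6 arrays normalized alone, the deposited second table, all 9 arrays in the fit, other probe filters, the mean of a gene's probes, array weights, the array set as a block or singly, and each tumour left out.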

Additional observations from a re-analysis of the deposited data

How the results depend on the processing

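No paired analysis was possible because the labels give each mouse its own number and none is shared between genotypes. The count of 0 genes past the threshold held in every alternative except array quality weights, which called 1 (Ttc27, 4.09, adjusted p 0.0391) and gave Twist cKO 2 a weight of 0.378. The count of genes with an unadjusted p under 0.05 was 693 of 19057 without a filter on dim probes, and 279 (without Snail cKO 2) to 657 (without Twist cKO 3) with 1 tumour left out. It was 315 with the array set as a block, which leaves each difference unchanged, and 418 within set 2. Genes without overlap numbered 1486 without the filter. Of 1563 other recomputed differences of 121 named genes, 38 turned, and of 726 with 1 tumour left out, 29 did. The 1563 include the array set as a block and the fit of all 9 arrays, which cannot change a difference. The cause of these shifts was not tested.

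Snai1 was at -0.088 with weights, at -0.43 within array set 1, and from -0.46 to 0.65 with 1 tumour left out. With weights, Cd74, Cd3e, Slc29a1 and Pdgfra were at 0.28, 0.028, -0.047 and 0.022, and the chemokine median at 0.15. Foxc1 was at 0.085 without background correction, 0.052 with an offset of 50 and 0.41 within set 2. H2-Ab1 was at -0.013 without background correction, -0.10 with cyclic loess, -0.046 in the second deposited table, -0.076 with the mean of kept probes and -0.81 within set 2. With the mean of kept probes Zeb1 was at -0.24 and Slc29a1 at -0.16, and within set 2 Tcf3 was at -0.0020 and the skeletal muscle median at -0.45.

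Within set 1, where 1 tumour a genotype remained, Snai3 was at 0.63, Zeb1 -0.41, Zeb2 0.16, Sox4 -0.17, Krt18 -0.31, Amy2a5 2.02, Aurka -0.078, Rrm2 -0.13, Mpeg1 0.45, H2-DMb1 0.57, Cd74 0.90, S100a4 -0.66, Plaur -0.70, Nrg1 -0.48, Ltb 0.26, Lep 0.095, Cd22 0.055, Cd3e 0.65, Slc29a1 -1.09, Slc29a2 -0.036 and Pdgfra 0.38. List medians there were -0.63 for mesenchymal, 2.14 for smooth muscle, -0.012 for macrophage, 0.87 for adipocyte, 2.42 for acinar, 0.45 for Schwann cell, 0.027 for proliferation, -1.23 for histone, 0.12 for nucleoside, -0.51 for p53 target, 1.27 for interferon, -0.21 for immediate-early and -0.47 for EGF family genes. The nucleoside median was 0.15 without background correction, 0.15 without a filter and with detection on 3 of 3 arrays of a genotype, and 0.16 with the mean of kept probes, and the proliferation median was 0.27 without a filter.

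With 1 tumour left out, Snai2 ran from -0.011 to 1.11, Snai3 from -0.48 to 0.13, Zeb1 from -0.50 to 0.44, Zeb2 from -0.66 to 0.35, Prrx1 from -0.0087 to 1.60, Foxc1 from -1.27 to 0.70, Tcf3 from -0.20 to 0.22, Sox4 from -0.33 to 1.64, Krt18 from -0.045 to 4.08, Cdh1 from -0.32 to 2.26, Muc1 from -0.50 to 3.16, H2-DMb1 from -1.51 to 0.18, H2-Ab1 from -0.78 to 1.2, Cd74 from -1.32 to 0.72, Cd22 from -2.24 to 0.29, Cd3e from -2.03 to 0.92, Slc29a1 from -0.29 to 0.53 and Pdgfra from -1.0 to 0.81. The medians ran from 0.20 to 0.37 for nucleoside genes, from -0.64 to 0.15 for chemokines, from -0.24 to 0.46 for skeletal muscle, from -0.45 to 0.81 for Twist1 targets and from -0.47 to -0.23 for p53 targets. Genes near background, such as Twist2 and Tcf3, have little signal to order tumours by.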

Other observations

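Genes that lie next to the targeted genes in RefSeq's order were counted, a choice made with their values known. Within 50 genes on either side of Twist1, 7 of the 52 tested genes (13.5%) had an unadjusted p under 0.05 and 8 (15.4%) had genotypes that did not overlap, where these shares were 3.33% and 8.13% over all genes. Id2 was among the 7, and within 100 genes the count stayed at 7, of 85 (8.24%). Within 50 genes of Snai1, 2 of 62 (3.23%) and 5 (8.06%) did so, and within 100 genes 5 of 98 (5.10%) had such a p. Sys1 and Serinc3, both among the first-ranked genes, were in that last count, with 62 and 87 genes between them and Snai1. Pygb lay 276 genes from Snai1 and Smoc1 208 genes from Twist1. Agr2, named above among the mucinous genes, had 5 genes between it and Twist1 and was among the 8 without overlap there. Aurka had 23 genes between it and Snai1, and its genotypes overlapped.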
